A study of Mus musculus with 4 samples.

Results

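The genes described here are the nuclear genes for subunits of the oxidative phosphorylation system, measured by bulk RNA sequencing in LSK cells of aged mice. They are the rows of the deposited gene table whose symbol follows the naming of the 5 complexes (Nduf followed by a, b, c, s or v and a digit, Cox4 to Cox8, Atp5, Uqcr and Sdha to Sdhd), and there are 84 of them among 24421 genes. By symbol, 37 belong to complex I, 4 to complex II, 8 to complex III, 18 to complex IV and 17 to complex V. Subunit genes with other names, such as Cyc1 of complex III and Ndufab1 of complex I, are outside this rule. LSK cells are bone marrow cells that lack lineage markers and carry Sca1 and Kit, a fraction rich in hematopoietic stem cells and their first progeny. All mice were 13 to 15 months of age. There were 2 libraries from wild-type (WT) mice and 2 from mice with 1 mutant p53 allele, R248W, beside a wild-type allele (p53R248W/+). The labels do not say whether libraries of a genotype came from separate mice or from pools, so each p-value reflects only how far these libraries spread, and that spread may be technical. Cells were sorted by surface markers, and the labels give no split of the LSK gate into stem cells and progenitors.

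Oxidative phosphorylation takes place in the inner mitochondrial membrane. Complexes I and II pass electrons from NADH and succinate to ubiquinone, complex III passes them on to cytochrome c, and complex IV passes them to oxygen. Complexes I, III and IV pump protons, and complex V, the ATP synthase, lets them flow back and makes ATP. All of complex II and most subunits of the others are encoded in the nucleus, and the rest come from mitochondrial DNA. Quiescent hematopoietic stem cells are known for leaning on glycolysis, while activated stem cells and progenitors make more use of respiration.

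The libraries held 12111126 to 14820759 counted reads. Of the 84 genes, 79 passed the filter on low counts and were tested, among 13296 tested genes in all. The genes of the sort were present in every library: Kit was at 911 to 1182 CPM (reads relative to the TMM-scaled library size) and Ly6a, which encodes Sca1, at 40.2 to 82.9 CPM. The 6 hemoglobin genes looked up were listed at 0 in all libraries, and whether their reads could be counted was not checked. The erythroid list of 12 genes that holds them summed to 544 and 843 CPM for WT and 774 and 841 CPM for p53R248W/+, so other erythroid genes were present. The summed level of 13 neutrophil and monocyte genes was 1801 CPM in WT replicate 1, 646 in WT replicate 2 and 1092 and 877 in the p53R248W/+ libraries. Mpo, the myeloperoxidase gene, alone held 1273 CPM of the sum in WT replicate 1, while S100a8, S100a9, Ltf, Camp and Ngp had their lowest level in that library.

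Levels differed far more between genes than between genotypes. On a scale comparable between genes, CPM per kilobase of exon, the 79 tested genes ran from a mean of 1.16 to 698 over the 4 libraries, with a median of 28.2, while the median of all tested genes was 10.02. Atp5b, the catalytic beta subunit of ATP synthase, had the highest level of the 84, at 821 and 721 CPM per kilobase for WT and 666 and 586 for p53R248W/+. Next came Cox7c, a small subunit of complex IV, with a mean level of 208 CPM per kilobase, and Atp5a1, the alpha subunit that alternates with beta in the catalytic ring, at 146. Sdha, the flavoprotein of complex II, followed at 123 and Uqcrh, the hinge protein of complex III, at 117 CPM per kilobase. In complex I the highest level was that of Ndufa4, at 101 CPM per kilobase. Ndufa4 carries a complex I name by history but its protein is known as a subunit of complex IV. The alpha and beta subunits sit in equal numbers in the enzyme, and the ratio of the levels per kilobase of Atp5b to Atp5a1 was 4.40 and 4.68 in WT and 5.70 and 4.58 in p53R248W/+.

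**Figure D1:**
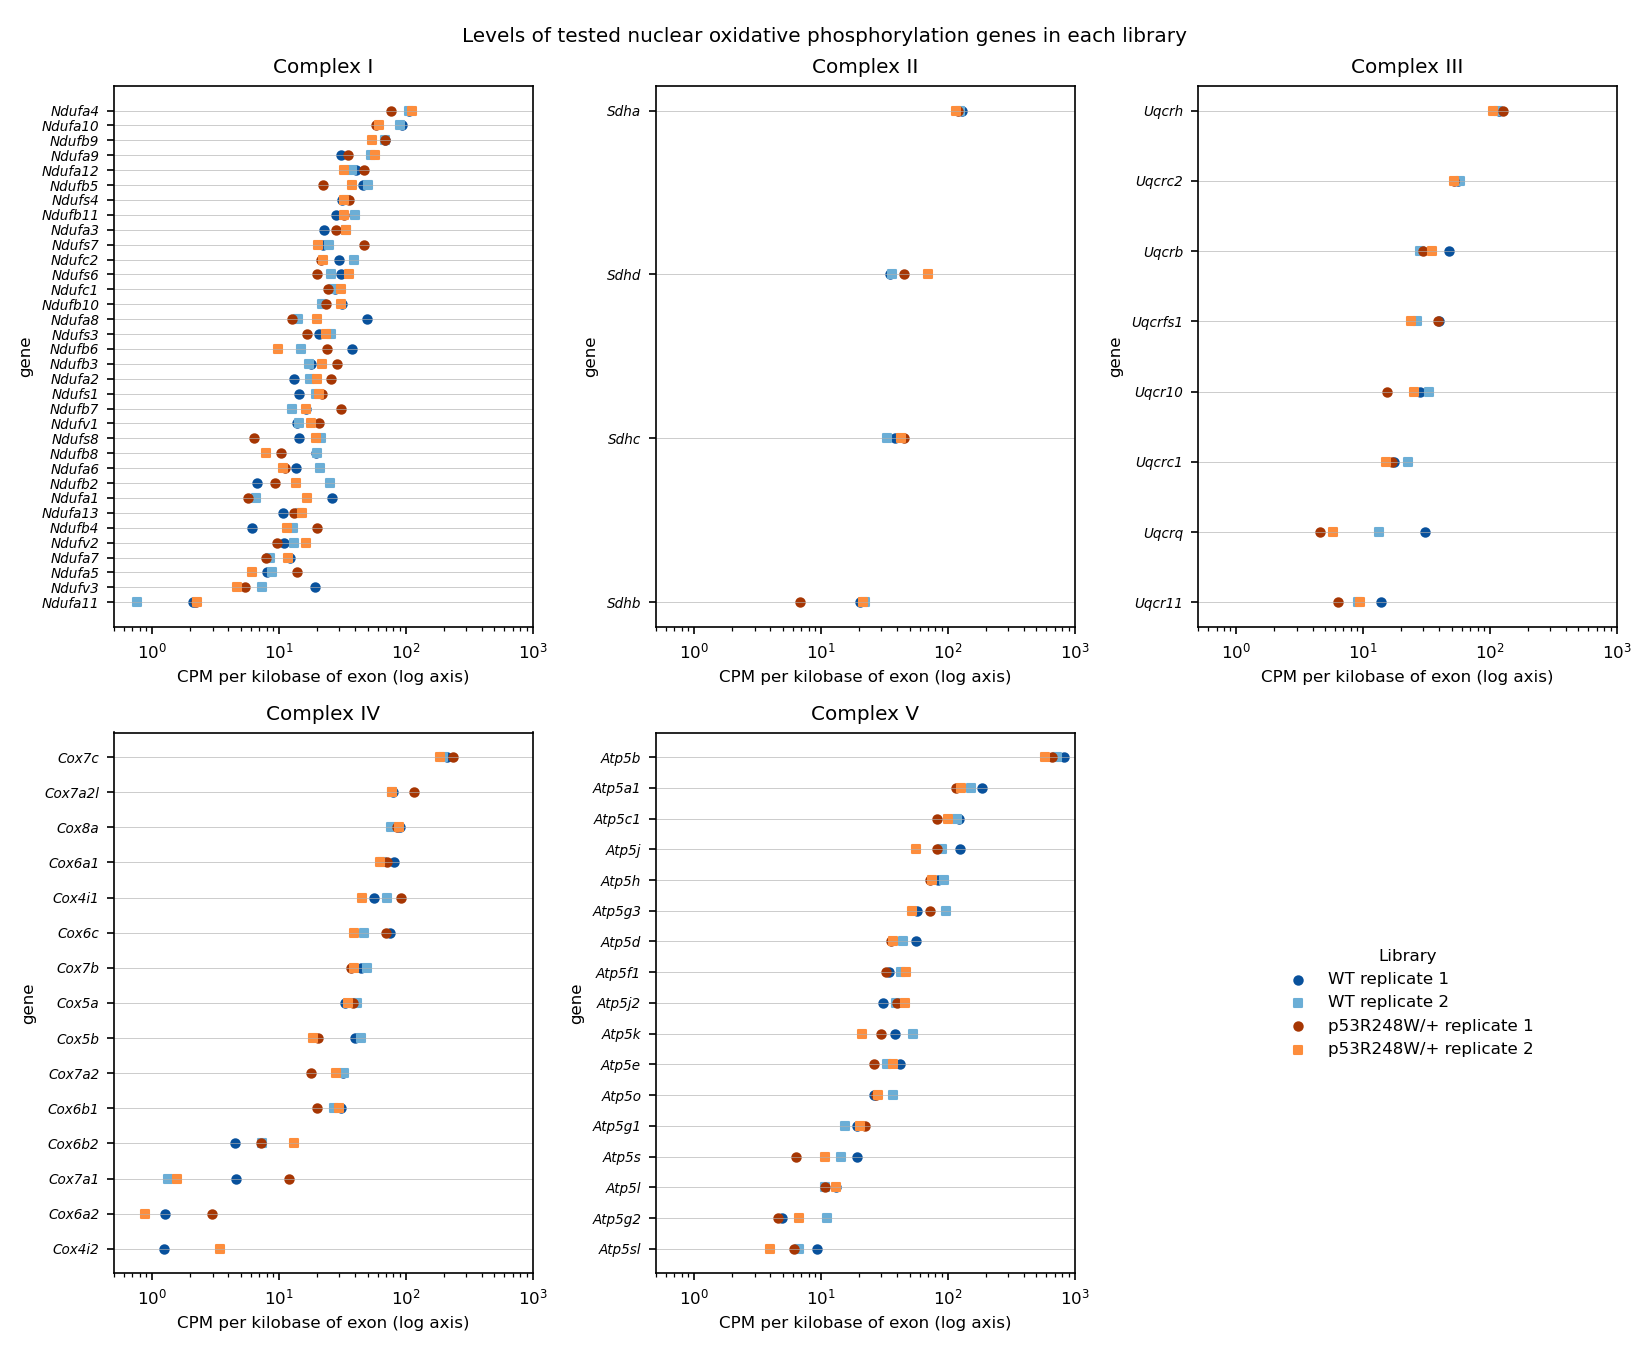
Level of 78 of the 79 tested genes in each library, in CPM per kilobase of exon on a log axis, with 1 panel per complex, genes ordered by mean level and 1 point per library. Points of one gene lie close together beside the range between genes, which runs from a mean of 1.16 to 698, and libraries at 0 (Cox4i2 and Cox6a2) have no point.

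RefSeq promoter windows on GRCm38.p6, from 250 bases before to 50 after a start, were matched for 69 of the 84 genes (75 windows). The motif of NRF1, a factor known for driving respiratory genes, was searched as the letters in capitals in the Cox6a1 stretch below, which read the same on both strands. It stood in windows of 5 of the 69 genes, or 7.25%, against 1.07% of all 27025 genes with a window. The core of the ETS factor GABPA, searched as CCGGAAG on both strands, was found in 16 of 69, or 23.2%, against 9.93%. Both motifs stood in windows of 2 of the 69 genes, and most of the 69 held neither. The motif of the factor YY1, also searched on both strands, stood in 5 of 69, or 7.25%, against 0.755% of all genes. The CCAAT box, searched as CCAAT on both strands, was in 44.9% of the 69 and 41.1% of all genes. The TATA box, searched as TATAAA on both strands, was in 10.1% of the 69 and 15.7% of all genes. Median GC content was 57.3% in the windows of these genes and 52.7% in all windows. A match is a description of the letters and not a bound site. The stretches below are some of those that hold an NRF1 or ETS match, lie before the start and hold no annotated exon base. Others, such as those before Atp5e and Atp5l, are not printed. The printed stretches run 5′ to 3′ on the strand of the gene with the match in capitals. They show the NRF1 motif before Cox6a1 (chr5:115349071-115349129, minus strand) and the ETS core, on the other strand, before Sdhd (chr9:50603850-50603909, minus strand) and Uqcrh (chr4:116075072-116075120, minus strand).
Cox6a1: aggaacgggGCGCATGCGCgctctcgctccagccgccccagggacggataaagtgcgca
Sdhd: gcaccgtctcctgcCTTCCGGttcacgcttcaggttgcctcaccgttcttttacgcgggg
Uqcrh: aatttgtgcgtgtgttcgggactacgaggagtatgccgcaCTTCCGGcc

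The comparison of the design asks which transcripts differ in LSK cells that carry the mutant p53 allele. With the quasi-likelihood test of edgeR, 0 of the 79 tested genes passed an adjusted p of 0.05, and 0.824 was the smallest adjusted p among them. The background was the same, with 0% of all tested genes called. limma-voom also called 0 of the 79 and 0 of all tested genes, and DESeq2 called 0 of the 79 and 6 of all tested genes. At an unadjusted p under 0.05 there were 6 of the 79 genes, all with lower values in p53R248W/+, where 5.87% of all tested genes met that level in either direction, 2.86% in the lower and 3.01% in the higher direction. The 6 were Atp5a1, Uqcrq, Ndufa10, Atp5b, Ndufv3 and Cox5b. limma-voom put 4 of the 79 at that level, where it put 4.65% of all tested genes, and DESeq2 put 7, where it put 5.92%. Without WT replicate 1 there were 0 such genes (2.94% of all tested genes) and without WT replicate 2 there were 7 (7.73%). Without p53R248W/+ replicate 1 there were 3 (2.39%) and without p53R248W/+ replicate 2 there were 4 (6.38%).

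By sign, 49 of the 79 fold changes were below 0 and 30 above, and the median log2 fold change (p53R248W/+ over WT) was -0.12, where 50% of all tested genes were below 0 and the median was 0.00. Both p53R248W/+ libraries lay below both WT libraries for 24 genes, or 30.4%, against 16.6% of all tested genes. They lay above for 9 genes, or 11.4%, against 16.9%. The genotypes thus did not overlap for 41.8% of the 79, against 33.6% of all tested genes, and overlapped for the remaining 46. For 57 of the 79 genes, or 72.2%, the gap between replicates of at least 1 genotype was larger than the difference between the genotype means, and this held for 78.4% of all tested genes. Summed over the 79 genes, the level was 4906 and 4523 CPM for WT and 4118 and 3975 CPM for p53R248W/+, a sum in which Atp5b alone held 1543, 1354, 1251 and 1102 CPM. In a bulk sample, fewer cells with a high level and less RNA per cell cannot be told apart.

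**Figure D2:**
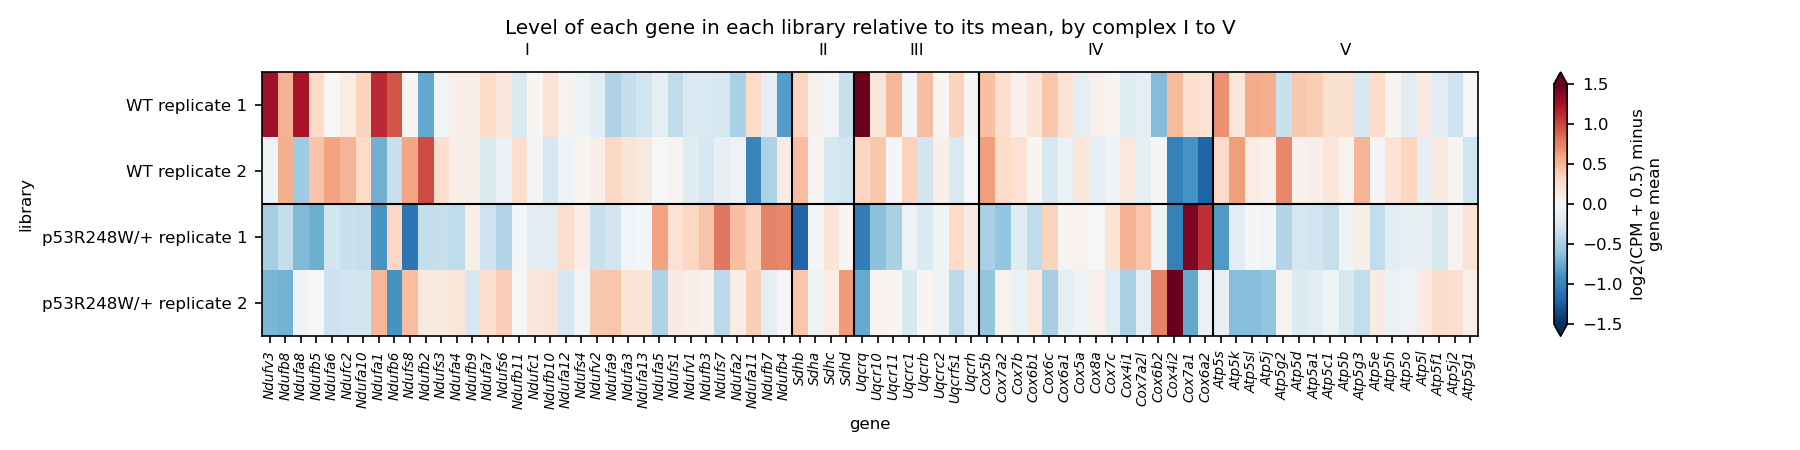
Level of 78 of the tested genes in each library as log2(CPM + 0.5) minus the gene's mean over the 4 libraries, with libraries in rows, genes in columns, black lines between complexes I to V and between genotypes, and colours capped at 1.5. Most columns of complex V are red in the WT rows and blue in the p53R248W/+ rows, and complex I shows both patterns.

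**Figure D3:**
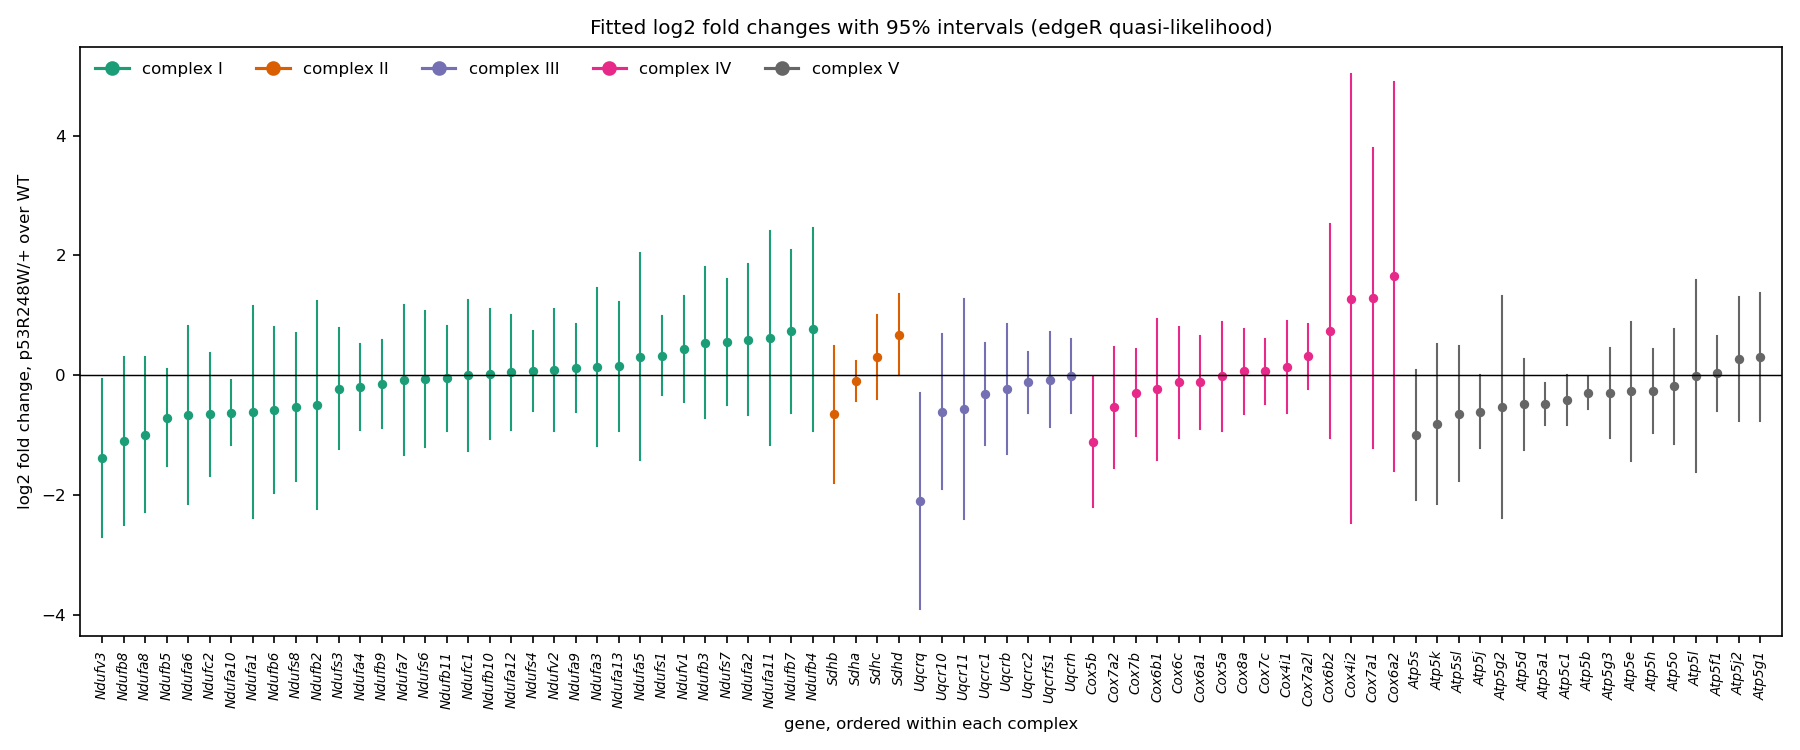
Log2 fold change of p53R248W/+ over WT for 78 of the 79 tested genes (points) with 95% intervals (lines) from the edgeR quasi-likelihood fit, ordered within each complex. Fold changes of the 8 complex III genes drawn all lie below 0, and those of complex V do so for 14 of 17 genes. The widest intervals belong to the weakly counted isoforms of complex IV.

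Complex V made up the largest part of the summed level, with 2676 and 2406 CPM for WT and 2056 and 1963 CPM for p53R248W/+. Of its 17 genes, 14 had a negative fold change, and the median was -0.30. With a library left out, this number ran from 11 (without WT replicate 2) to 15 (without p53R248W/+ replicate 2). For 9 of the 17 genes (52.9%) both p53R248W/+ values lay below both WT values, against 16.6% of all tested genes. For 2 (11.8%) they lay above, against 16.9%. The catalytic F1 head is made of alpha, beta, gamma, delta and epsilon subunits, and all 5 of its genes had a negative fold change. Atp5a1 (12 exon blocks on the plus strand of mm10 chromosome 18, 77773768 to 77782868) was at 454 and 374 CPM for WT and at 284 and 311 CPM for p53R248W/+. The genotypes did not overlap, with a log2 fold change of -0.48 ± 0.17 (SE, n = 2 libraries each; quasi-likelihood test of edgeR, adjusted p = 0.824) and a 95% interval of -0.83 to -0.12. Atp5b (chromosome 10, 128083307 to 128090388, plus strand, 10 exon blocks) was at 1543 and 1354 CPM for WT against 1251 and 1102 CPM. Its log2 fold change of -0.30 ± 0.13 (SE) had the smallest error of the 79 genes, with an interval from -0.57 to -0.03. Atp5c1, the gamma subunit that turns inside the head (chromosome 2, 10056031 to 10080510), was at 222 and 214 CPM for WT against 149 and 180 CPM. That gave -0.41 ± 0.20 (SE) on the log2 scale. These 3 genes kept a negative fold change with each library left out, from -0.60 to -0.33 for Atp5a1, -0.40 to -0.20 for Atp5b and -0.55 to -0.28 for Atp5c1. Atp5d, the delta subunit, was at 52.5 and 41.6 CPM for WT and 33.2 and 34.3 CPM for p53R248W/+. Atp5e, the epsilon subunit, overlapped, at 17.3 and 13.7 CPM for WT and 10.8 and 15.4 CPM.

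**Figure D4:**
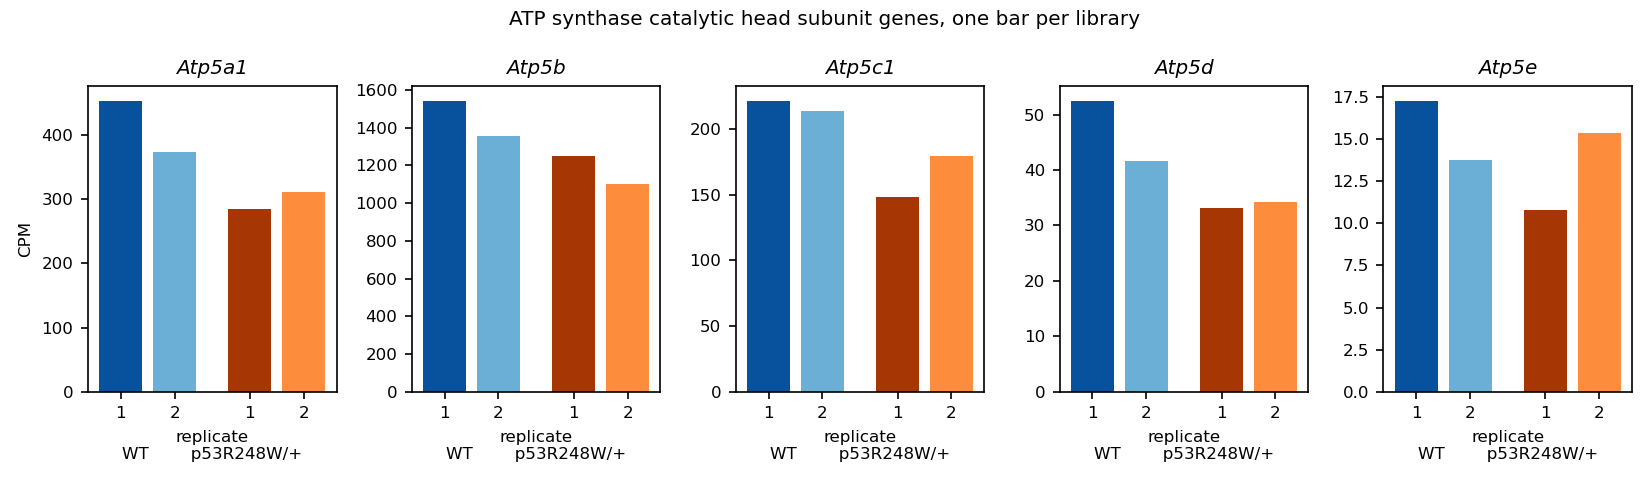
CPM of the 5 genes of the ATP synthase catalytic head, with 1 bar per library, WT replicates in blue and p53R248W/+ replicates in orange, and a separate vertical axis from 0 for each gene. Both p53R248W/+ bars are lower than both WT bars for Atp5a1, Atp5b, Atp5c1 and Atp5d, while for Atp5e p53R248W/+ replicate 2 (15.4 CPM) lies between the WT bars.

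The other parts of ATP synthase were more mixed. Of the 4 peripheral stalk genes, which hold the head still, Atp5j (coupling factor 6) was at 112 and 81.1 CPM for WT and 74.6 and 50.9 CPM for p53R248W/+. That is a log2 fold change of -0.61 ± 0.29 (SE), which came to -0.36 when WT replicate 1 was left out and -0.37 when p53R248W/+ replicate 2 was, and to -0.92 when p53R248W/+ replicate 1 was. In its deposited model 123 of 903 exon bases are shared with Gabpa, the gene of the ETS factor named above, which starts beside it on the other strand. Gabpa itself was at 232 and 250 CPM for WT and 231 and 310 CPM for p53R248W/+. Atp5h was also lower in both p53R248W/+ libraries (-0.26 ± 0.33, SE), and Atp5o and Atp5f1 overlapped. The c ring, which the protons turn, has 3 genes with the same mature product. Atp5g3 was the main source, with 66.0% to 78.5% of their summed level per kilobase in each library, and Atp5g2 the smallest at 4.63% to 9.04%. Atp5g3 was at 41.5 and 70.1 CPM for WT and 52.1 and 37.9 CPM for p53R248W/+, and Atp5g1 at 16.7 and 13.4 against 19.5 and 17.6 CPM, a fold change of 0.31 that was 0.17 without WT replicate 2. The directions of Atp5g2 and Atp5g3 turned without WT replicate 2, to 0.17 and 0.14. Of the membrane accessory genes, Atp5k was lower in both p53R248W/+ libraries, Atp5j2 higher in both, and Atp5l overlapping, at -0.02 ± 0.76 (SE) with an interval from -1.62 to 1.59. Of windows of 50 bases in the Atp5l transcript, 68.5% also occur in transcripts of other genes, the largest such share among the 84, so its count is uncertain. Atp5s and Atp5sl carry Atp5 names but are known as accessory factors and not as subunits. Both were lower in both p53R248W/+ libraries, Atp5s at 28.5 and 21.4 CPM against 9.51 and 15.9 CPM, a fold change of -1.002 that was -0.64 without p53R248W/+ replicate 1. Without them the median of the other 15 genes of complex V was -0.30.

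Complex III, the cytochrome bc1 complex, had a negative fold change for all 8 of its genes, with a median of -0.27, and 4 of them did not overlap between genotypes. Without WT replicate 1 the negative fold changes of the genes taken by symbol numbered 5 of 8, and without p53R248W/+ replicate 2 they numbered 6. Among these 8, the largest difference was in Uqcrq, a small subunit next to cytochrome b (chromosome 11, 53428948 to 53430831, minus strand, 2 exon blocks). Uqcrq was at 15.3 and 6.66 CPM for WT and at 2.29 and 2.89 CPM for p53R248W/+. The fitted level was 4.29-fold lower, or -2.10 ± 0.86 on the log2 scale (SE; quasi-likelihood test of edgeR, adjusted p = 0.824) with an interval from -3.91 to -0.29. The WT replicates differed by more than 2-fold, and without WT replicate 1 the value was -1.37. The core proteins Uqcrc1 and Uqcrc2 lay at -0.32 ± 0.41 and -0.12 ± 0.24 (SE), and Uqcrc1 came to -0.10 without WT replicate 2 and -0.50 without WT replicate 1. Uqcrc2 was at 105 and 109 CPM for WT against 98.1 and 99.1 CPM, groups that were apart by a small amount. The Rieske iron-sulfur protein gene Uqcrfs1 was at 52.4 and 35.3 CPM for WT and 51.0 and 31.1 CPM for p53R248W/+, where the replicates differed more than the genotypes. Uqcrh, whose promoter stretch is printed above, was at 64.4, 63.7, 69.2 and 57.7 CPM, with a fold change of -0.01 ± 0.29 (SE) on the log2 scale and an interval from -0.63 to 0.61.

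Complex I, the NADH dehydrogenase, was split. Of its 35 tested genes 18 had a negative and 17 a positive fold change, and the median was -0.05. Both p53R248W/+ libraries were lower for 7 and higher for 5, where 16.6% of all tested genes were lower and 16.9% higher. In either direction, the genotypes did not overlap for 34.3% of the 35 genes, close to the 33.6% of all tested genes. The core that oxidises NADH lay on the positive side. Ndufv1, which binds NADH, was at 22.5 and 23.3 CPM for WT and 33.1 and 28.6 CPM for p53R248W/+, a log2 fold change of 0.44 ± 0.42 (SE). Ndufs1, the largest iron-sulfur subunit, was at 42.5 and 57.1 CPM against 64.3 and 60.5 CPM (0.33 ± 0.32, SE), with 0.13 without WT replicate 1 and 0.56 without WT replicate 2. Part of its exon sequence is shared with Ino80dos. Ndufv2 overlapped, at 0.09 ± 0.49 (SE). Of the core that passes electrons to ubiquinone, Ndufs3, Ndufs7 and Ndufs8 overlapped between genotypes. They were at -0.22 ± 0.48, 0.56 ± 0.50 and -0.53 ± 0.59 (SE), and each changed sign without p53R248W/+ replicate 1.

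Among the accessory subunits of complex I, Ndufa10 (chromosome 1, 92439719 to 92473758, minus strand, 10 exon blocks) had the closest replicates of the 6 genes with an unadjusted p under 0.05. It was at 113 and 109 CPM for WT and 70.3 and 73.9 CPM for p53R248W/+, a log2 fold change of -0.62 ± 0.25 (SE) with an interval from -1.16 to -0.09. The fold change ran from -0.66 to -0.585 with each library left out. Ndufv3 was at 30.3 and 11.6 CPM for WT against 8.57 and 7.43 CPM (-1.38 ± 0.63, SE), and this was -0.53 without WT replicate 1. Ndufb8 was at 12.6 and 12.9 CPM for WT and 6.68 and 5.12 CPM for p53R248W/+, and Ndufb5 at 45.9 and 50.1 against 22.3 and 37.5 CPM, 2 genes named after their values were seen. Of the 27 tested accessory genes, 14 had a negative and 13 a positive fold change. Both p53R248W/+ libraries were lower for 7 (25.9%) and higher for 3 (11.1%), against 16.6% and 16.9% of all tested genes. The 3 were Ndufa2, Ndufb3 and Ndufa11, also named after their values were seen. Ndufb3 was at 9.48 and 9.19 CPM for WT against 15.2 and 11.7 CPM. Ndufs5 was listed at 0 in all 4 libraries. Of its 509 exon bases, 484 are shared in the deposited coordinates with the gene BC002163, which had 7 to 10 counts per library, so the 0 says nothing about its level. Ndufa4l2, a paralog of Ndufa4, was also listed at 0, where 3 counts correspond to 0.202 to 0.248 CPM depending on the library, a limit that covers counting error only. Ndufa4 was at 52.5 and 52.6 CPM for WT and 37.5 and 55.4 CPM for p53R248W/+.

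Complex II, which is also the succinate dehydrogenase of the citric acid cycle, showed no common direction among its 4 genes. Sdha was at 367 and 356 CPM for WT and 346 and 331 CPM for p53R248W/+, a log2 fold change of -0.09 ± 0.16 (SE) whose interval ran from -0.43 to 0.24. Sdhb, the iron-sulfur subunit, was at 21.8, 24.1 and 23.2 CPM in 3 libraries and at 7.28 CPM for p53R248W/+ replicate 1. The log2 fold change of Sdhb, -0.66 ± 0.55 (SE), came to 0.017 without that library. The membrane anchors lay the other way. Sdhd (chromosome 9, 50596340 to 50603849, minus strand, 4 exon blocks; promoter stretch above) was at 45.3 and 46.8 CPM for WT and 58.5 and 90.2 CPM for p53R248W/+. That is a log2 fold change of 0.68 ± 0.32 (SE; quasi-likelihood test of edgeR, adjusted p = 0.824), the only positive one among the 10 genes with the smallest p, and 0.35 without p53R248W/+ replicate 2. Sdhc was at 45.5 and 38.8 CPM against 53.7 and 50.4 CPM (0.31 ± 0.33, SE), and 0.20 without WT replicate 2.

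Complex IV, cytochrome c oxidase, had 18 genes, of which 15 were tested, with a median of 0.06. The 10 common isoforms had a median of -0.12, with 7 negative, and the 4 tested tissue-restricted isoforms, all weakly counted, were all positive. Its largest difference among the common isoforms was in Cox5b, a subunit on the matrix side (chromosome 1, 36691487 to 36693388, plus strand, 4 exon blocks). Cox5b was at 22.5 and 25.5 CPM for WT and 11.5 and 10.7 CPM for p53R248W/+, a log2 fold change of -1.11 ± 0.52 (SE) that ran from -1.19 to -1.01 with each library left out. Of the windows in its transcript, 25.9% also occur in Gm11273, so part of its reads could be split between the loci. Cox7c was at 94.6 and 88.6 CPM for WT and 107 and 83.5 CPM for p53R248W/+ (0.06 ± 0.26, SE). Cox4i1, the common form of the regulatory subunit, was at 42.9 and 54.4 CPM for WT and 70.1 and 34.7 CPM for p53R248W/+, so its replicates spanned more than the genotypes. Cox6a1, Cox6b1, Cox7b, Cox8a and Cox7a2 had fold changes from -0.53 to 0.06 on the log2 scale. The lowest was that of Cox7a2, which came to -0.22 without p53R248W/+ replicate 1 and -0.87 without p53R248W/+ replicate 2. Cox7a2l, known as an assembly factor of respiratory supercomplexes, was at 90.7, 89.99 and 89.9 CPM in 3 libraries and at 133 CPM for p53R248W/+ replicate 1.

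Most isoforms of complex IV known from muscle, testis and lung were low or absent. Cox4i2, the lung form, had 13 and 0 counts in WT and 0 and 30 in p53R248W/+. Cox6a2, a heart and muscle form, had 12 and 0 against 29 and 7 counts. Cox7a1, also a muscle form, had 24 and 7 counts in WT and 65 and 7 in p53R248W/+, so its fold change rested on p53R248W/+ replicate 1. Of the summed level per kilobase of Cox7a1 and Cox7a2 it held 12.4% and 3.92% in WT and 40.2% and 5.33% in p53R248W/+. Cox8c was listed at 0 in all libraries, Cox8b had 1 count in p53R248W/+ replicate 2 and 0 elsewhere, and Cox7b2 had at most 8 counts per library. Cox6b2, known from testis, was at 2.79 and 4.56 CPM for WT and 4.45 and 8.18 CPM for p53R248W/+. It held 12.8% and 21.4% of the summed level per kilobase of Cox6b1 and Cox6b2 in WT and 26.3% and 30.8% in p53R248W/+. Its own fold change was 0.74 ± 0.85 (SE) on the log2 scale, with overlapping libraries, and came to 0.28 without p53R248W/+ replicate 2 and 1.15 without p53R248W/+ replicate 1.

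**Figure D5:**
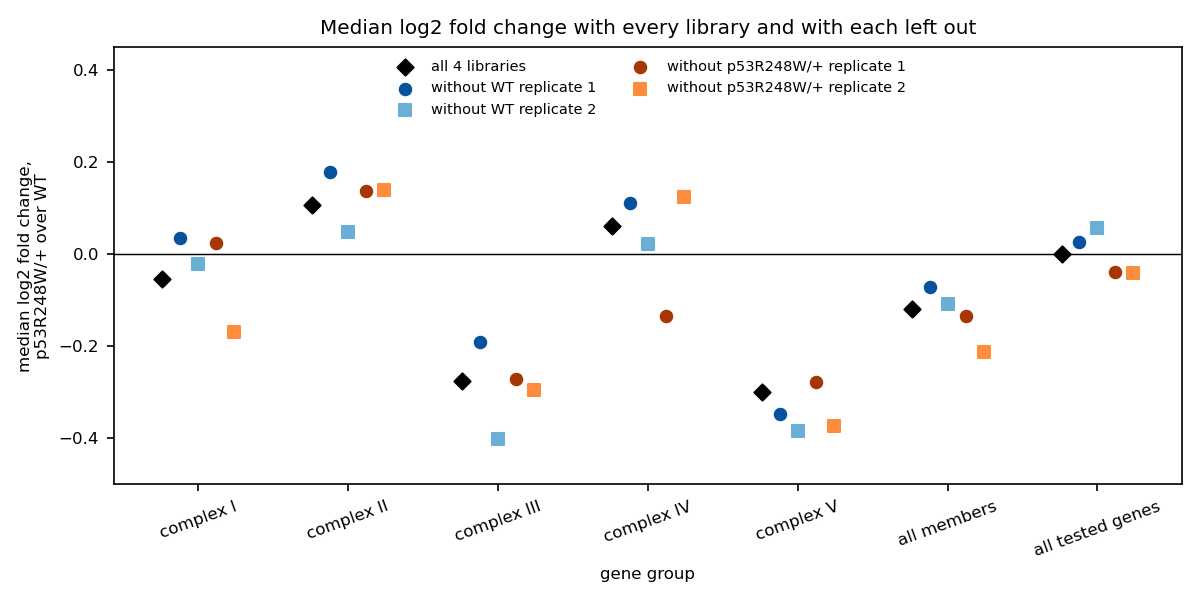
Median log2 fold change of p53R248W/+ over WT for the tested genes of each complex, for all of them and for all tested genes of the table, with all 4 libraries (diamonds) and with each library left out (circles and squares). The medians of complex III (-0.40 to -0.19) and complex V (-0.38 to -0.28) stay below 0 in every such fit, that of complex II stays above 0, and those of complexes I and IV lie on both sides.

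Further genes of the respiratory chain and around it were read from lists chosen with earlier results of these data known, and no member of them passed over all genes. Of 45 tested assembly factors, which build the complexes, 23 had a negative and 22 a positive fold change, with a median of -0.0025. Among them Tmem70, an assembly factor of ATP synthase, was at 62.4 and 38.9 CPM for WT and 21.9 and 23.0 CPM for p53R248W/+ (-1.18 ± 0.40, SE; quasi-likelihood test of edgeR, adjusted p = 0.824). Of 23 electron carriers and exchangers of the inner membrane 17 were negative and 6 positive, with a median of -0.06. Among the positive ones were the subunit genes outside the symbol rule, Cyc1 at 0.30 and Ndufab1 at 0.21, both with overlapping libraries. Slc25a3, the phosphate carrier that supplies ATP synthase, was at 472 and 362 CPM for WT and 335 and 278 CPM for p53R248W/+ (-0.44 ± 0.18, SE). Of 18 genes of pyruvate dehydrogenase and the citric acid cycle 11 were negative, with a median of -0.08, and the mitochondrial isocitrate dehydrogenase Idh2 was at 81.9 and 57.9 against 36.2 and 45.2 CPM. Of 20 regulators of mitochondrial gene expression and biogenesis 9 were negative and 11 positive, with a median of 0.04. Peo1, with the smallest p of these, was at 27.9 and 15.1 CPM for WT and 41.3 and 34.4 CPM for p53R248W/+ (0.83 ± 0.43, SE). Sco2, a complex IV assembly factor and known p53 target, was listed at 0 in all libraries. Overlap of its exons with other genes was not measured, so the 0 is not read as absence. Of 7 tested genes linked to both p53 and mitochondria 6 were positive, with a median of 0.30. The exception was Tigar, known to restrain glycolysis, at 7.25 and 5.19 CPM for WT and 3.78 and 0.991 CPM for p53R248W/+ (-1.30 ± 0.91, SE).

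Lists of cell types and states are given as values, and their part in the respiratory values was not tested. Of 20 proliferation genes 19 had a negative fold change, with a median of -0.29, and their summed level was 3052 and 3817 CPM for WT and 2200 and 3699 CPM for p53R248W/+, so the groups overlapped. Of 12 stem and progenitor genes 8 were positive, with a median of 0.26 and sums of 3703 and 4027 CPM for WT and 4705 and 4411 CPM for p53R248W/+. Of 6 tested megakaryocyte and platelet genes of 7, 5 were negative, with a median of -0.19, and Gp6 was listed at 0 in all libraries. Their sums overlapped, at 604 and 688 CPM for WT and 645 and 494 CPM for p53R248W/+. Itga2b, the integrin alpha chain of platelets, was at 84.5 and 65.1 CPM for WT and 33.7 and 27.8 CPM for p53R248W/+, and Pf4, platelet factor 4, at 7.46 and 23.6 against 3.37 and 5.12 CPM, genes named after their values were seen. All 5 tested of 10 B and plasma cell genes were positive, with sums of 66.9 and 56.3 CPM for WT and 124 and 69.5 CPM for p53R248W/+, and Pax5 was listed at 0 in all libraries. All 4 tested of 8 stromal and endothelial genes were positive, with sums of 111 and 92.4 against 186 and 149 CPM, and Cxcl12 was listed at 0 in all libraries.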

How the data were processed

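The authors deposited raw read counts per gene symbol, with exon coordinates and summed exon length. The tools named in the submitters' processing notes, with build mm10, are STAR 2.7.10a, featureCounts, Subread 2.0.3, FastQC 0.11.5 and edgeR 3.40.2. Strand settings and the treatment of reads with several alignments are not given in the sources used here. Per the labels' protocols, RNA of sorted cells was isolated with column kits for mRNA libraries. The genes and lists described here were chosen with earlier results of these data known.

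Counts were filtered with filterByExpr (minimum count 10, minimum total 15), scaled by TMM and compared with edgeR 4.0.16 (glmQLFit with robust=TRUE and legacy=FALSE, glmQLFTest, R 4.3.3), and genotype was the single term of the model. Adjusted p-values are Benjamini-Hochberg values over all 13296 tested genes. Alternatives were limma-voom (limma 3.58.1), DESeq2 1.42.0, other scalings and filters, a block for the replicate number, and leaving out single libraries. Named genes were the highest in each complex per exon length, the 10 with the smallest p, core subunits and paralog sets, and up to 3 of each further list. Windows of 50 bases shared between transcripts were counted in GENCODE M21. Of the tested genes, 1 is not reported here by itself and was left out of the plots, while it stayed in the fit and in the counts over groups of genes.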

Additional observations from a re-analysis of the deposited data

How the results depend on the processing

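No gene of the 84 passed in any of the 13 alternatives, nor did any gene of the further pathway lists. The count at an unadjusted p under 0.05 was 4 to 7 outside the fits with a library left out. Outside those fits 4.65% to 6.05% of all tested genes reached that level. Over all tested genes, DESeq2 called 6 and the fit without p53R248W/+ replicate 2 called 1. The median log2 fold change of the genes ran from -0.21 to -0.072 with a library left out and from -0.13 to -0.12 otherwise. These fits leave 1 genotype with a lone library, which is assumed to vary like the others. With the replicate number as a block, the median was -0.12 and 0 genes passed. An unadjusted p under 0.05 was then found for 7 genes, where 5.7% of all tested genes had one. Deviations of the libraries numbered 1 from their group means correlated at -0.007 across genes, so the numbers were not taken to pair libraries. The legacy dispersion method of edgeR, chosen after seeing the data, gave 7 genes at an unadjusted p under 0.05 and a median of -0.12. That level was reached by 4.8% of all tested genes. Of 39 tested named genes, 22 kept their direction with each library left out and 17 did not, none of them called. Their log2 fold changes then ran from -0.49 to 0.52 for Cox4i1, -0.26 to 0.046 for Cox6a1, -0.52 to 0.040 for Cox6b1, -0.90 to 2.42 for Cox7a1, -0.0067 to 0.56 for Cox7a2l, -0.13 to 0.22 for Cox7c and -0.035 to 0.18 for Cox8a. They ran from -0.47 to 0.023 for Ndufs3, -0.22 to 1.00 for Ndufs7, -1.49 to 0.13 for Ndufs8, -0.31 to 0.45 for Ndufv2 and -0.49 to 0.076 for Ndufa4. The ranges were -1.66 to 0.017 for Sdhb, -0.50 to 0.24 for Uqcrfs1, -0.15 to 0.11 for Uqcrh, -0.9999 to 0.17 for Atp5g2 and -0.63 to 0.14 for Atp5g3. The median 95% interval of a tested gene reached 1.03 to either side on the log2 scale, which limits what 2 libraries per genotype can show.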
